A study of Mus musculus with 6 samples.

Results

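Chemokines are small secreted proteins that guide leukocytes, and chemokine receptors are the G protein-coupled receptors through which leukocytes follow them. The members described here were the genes of the deposited table whose symbol is Ccl, Cxcl, Ccr or Cxcr followed by a number, together with Cx3cl1, Cx3cr1, Xcl1, Xcr1, Ackr1 to Ackr4 and Ccrl2. The rule found 58 of 17684 genes, of which 35 were ligands, 18 were signalling receptors and 5 were atypical receptors, which bind chemokines or related ligands without the usual G protein signal. Ligands are bound to glycosaminoglycans on cell surfaces, and the receptor a leukocyte carries sets which ligands it follows: neutrophils follow CXC ligands through Cxcr2, and inflammatory monocytes follow Ccl2 and its relatives through Ccr2. In the kidney, tubular epithelium, endothelium and resident macrophages are all known sources of chemokines during injury.

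The study treated diabetic mice with a statin over a long period and sequenced RNA of the kidney. Both groups were db/db mice, which are obese and diabetic because their leptin receptor is mutated, of the strain labelled C57 BLKS/L, aged 50 weeks when the tissue was taken. The Db group was given normal saline for 40 weeks (3 libraries), and the Db + Ato10 group was given atorvastatin, an inhibitor of HMG-CoA reductase, at 10 mg/kg per day for 40 weeks (3 libraries). The question addressed is how long treatment with the statin altered the kidney transcriptome. No library came from a lean or nondiabetic mouse, so every value is a comparison within db/db mice. Total RNA was sequenced on the BGISEQ-500 platform. The labels give each library a group and a number and do not say how animals relate to libraries, so p-values measure the spread between samples.

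Library totals were 13134930, 11381678 and 12426051 counts for Db replicates 1 to 3 and 14578023, 14667909 and 13133241 counts for Db + Ato10 replicates 1 to 3. At these depths 3 counts, the floor used for a gene that was not detected, corresponded to between 0.198 and 0.260 CPM (read counts per library size, scaled by TMM factors). Such floors allow for counting error in Db alone, and a ratio against the floor takes the Db + Ato10 counts as exact. The counting intervals given for rare members cover counting error only. Kidney markers were present in every library: Slc34a1, a phosphate transporter of the proximal tubule, was at 3047, 2388 and 2811 TPM (the authors' length-scaled level, with the same total in each library) in Db and 273, 1396 and 2945 TPM in Db + Ato10. Umod, which encodes uromodulin of the thick ascending limb, was at 2243, 2968 and 2457 TPM in Db and 1908, 843 and 2423 TPM in Db + Ato10. For both genes the lowest values belonged to Db + Ato10 replicates 1 and 2. For Slc12a1 and Kcnj1, a sodium transporter and a potassium channel of the thick ascending limb, all treated libraries were below Db, at 863, 760 and 912 TPM in Db and 290, 219 and 347 TPM in Db + Ato10 for Slc12a1.

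Several libraries stood apart from their groups. Spearman correlations of CPM across all tested genes, which are not independent replicates, were 0.980 to 0.983 between Db libraries. Db + Ato10 replicate 3 correlated with the Db libraries at 0.978 to 0.985, replicate 2 at 0.926 to 0.946 and replicate 1 at 0.834 to 0.863. By this measure Db + Ato10 replicate 3 lay close to the Db libraries, and Db + Ato10 replicate 1 was the most distant from them. Db replicate 1 held almost no Y-linked counts, with a summed TPM of Ddx3y, Eif2s3y, Kdm5d and Uty of 0.100, against 78.0 and 68.2 in the other Db libraries and 73.7, 91.5 and 68.9 in Db + Ato10. The study's methods state that its mice were male. Results are therefore given below with all libraries and, where a call or a value changed, without single libraries.

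Chemokine transcripts were more abundant in Db + Ato10 replicates 1 and 2 than in any Db library, and in replicate 3 they were close to the Db level. The 35 ligands summed to 224, 395 and 298 TPM in Db and to 3760, 956 and 393 TPM in Db + Ato10. The 18 signalling receptors summed to 12.1, 14.4 and 11.3 TPM in Db and to 111, 57.4 and 14.5 TPM in Db + Ato10. The 5 atypical receptors were at 46.8, 44.5 and 55.0 TPM in Db and 58, 65.3 and 34.96 TPM in Db + Ato10, with replicates 1 and 2 above Db by a smaller margin and replicate 3 below it. In bulk tissue, a change in the number of cells of a type and a change in RNA per cell cannot be told apart, and this applies to every value below.

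The composition of the ligand pool differed between libraries. By mean TPM over the Db libraries, the order was Cxcl12 at 103, Ackr3 at 44.6, Cx3cl1 at 39.2, Ccl27a at 37.9, Cxcl16 at 35.04 and Cxcl10 at 23.1 TPM, so the leading member was a homeostatic ligand and the second was one of its receptors. Db + Ato10 replicate 3 was also led by Cxcl12, at 112 TPM. In Db + Ato10 replicate 1 the order was led by Cxcl2 at 933, Ccl3 at 636, Ccl6 at 342, Cxcl3 at 289 and Ccl4 at 235 TPM. Db + Ato10 replicate 2 was led by Cxcl16 at 181, Cxcl1 at 92.0, Ccl6 at 74.2, Cxcl5 at 66.5 and Ccl8 at 65.1 TPM. Ccl6 was among the leading members of both libraries.

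**Figure D1:**
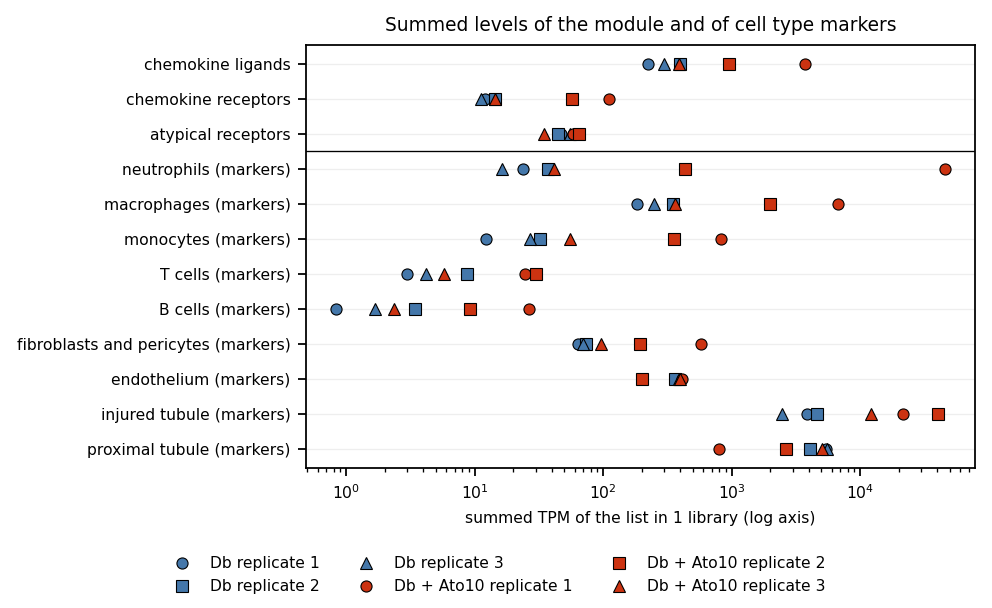
Summed TPM (log axis) of the chemokine ligands, receptors and atypical receptors, and below the line of cell type marker lists, with 1 symbol for each of the 6 libraries (Db blue, Db + Ato10 red). Ligands reach 3760 TPM in Db + Ato10 replicate 1 and 956 TPM in replicate 2, against 224 to 395 TPM in Db, and replicate 3 lies within the Db range.

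Of the 58 members, 30 had at least 10 counts in at least 3 libraries and were tested among 13679 genes, and 28 were not tested. All 28 untested members were under 10 counts in every Db library. The filter depended on the outcome for some members: 4 of the 30 (Cxcl5, Cxcl2, Cxcl3 and Ccl20) passed through the Db + Ato10 libraries alone, and 11 had fewer than 3 Db libraries at 10 counts. Counts and medians over the tested members are therefore a description and support nothing beyond the members' own values. With fold change over 1.5 and adjusted p under 0.05, edgeR called 0 members, and it called 0% of all tested genes in either direction. At an unadjusted p under 0.05 in edgeR, 19 members were higher in Db + Ato10, beside 11.2% of all tested genes, and 0 were lower, beside 5.71%. Their edgeR adjusted p ran from 0.239 to 0.268. DESeq2, with the same thresholds, called 13 members higher, beside 5.17% of all tested genes, and 0 lower, beside 1.29%, and it returned no adjusted p for Cxcl2, Cxcl3 and Ccrl2. Groups did not overlap for 12 members, all higher in Db + Ato10, beside 12% of all tested genes, and for 0 in the lower direction, beside 11.3%. The median log2 fold change was 1.91 over the 30 tested members and -0.0063 over all tested genes. Among the 18 members with at least 10 counts in every library, the unadjusted edgeR count was 10 and the count without overlap was 4, all higher. Of all 12675 genes under that filter, 2040 were at that p, of which 1345 were higher. Groups did not overlap for 2825 of these genes, of which 1501 were higher. An exact permutation test of 3 against 3 libraries cannot give a two-sided p below 0.1, so no member could pass 0.05 that way.

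Replicate 1 of Db + Ato10 held the highest value for 17 of the 30 tested members, replicate 2 for 8 and replicate 3 for 3, beside 30.8%, 15% and 8.03% of all tested genes. Replicates 1 and 2 lay above every Db library for 23 and 25 members, beside 38.6% and 35.1% of all tested genes. Replicate 3 did so for 14, beside 23.5%, and lay within the Db range for 13 and below it for 3. As a ratio to the mean of the Db libraries, the median CPM over the 30 members was 5.17, 4.02 and 1.33 in Db + Ato10 replicates 1 to 3 and 0.723, 1.20 and 0.849 in Db replicates 1 to 3. Leaving out a library changed the DESeq2 count from 13 to 7 (Db replicate 1), 6 (Db replicate 3) and 7 (Db + Ato10 replicate 1), while the count over all genes went from 884 to 195, 222 and 356. With Db replicate 2, Db + Ato10 replicate 2 or Db + Ato10 replicate 3 dropped instead, DESeq2 called 14, 9 and 18 members and 621, 443 and 2711 genes. The unadjusted edgeR count was 12 without Db replicate 1, 11 without Db replicate 3 and 8 with Db replicate 1 and Db + Ato10 replicate 1 both left out, beside 1061, 1134 and 913 of all 13679 tested genes in either direction. It was 22 with Db + Ato10 replicate 3 dropped, of which 20 were higher, beside 4119 genes, of which 2369 were higher. The count without overlap in either direction was 19 when Db replicate 2 was dropped and 24 when Db + Ato10 replicate 3 was, beside 5329 and 6902 of all 13679 tested genes, and 18 and 21 of these members were higher in Db + Ato10. Without Db + Ato10 replicate 3, edgeR called 16 members, all higher, beside 6.67% of all tested genes, with adjusted p from 0.0179 to 0.0482. Of these, 12 were among the 13 DESeq2 calls, which also held Ccl28, and the other 4 were Cxcl2, Cxcl3, Cxcr4 and Cxcl13. DESeq2 called Cxcl5, Ccl20, Cxcl9 and Ccl9 with all libraries and with each of the 6 libraries left out in turn. It lost the other 9 without at least 1 library. The count filter was set once, on all 6 libraries. Cxcl5, Ccl20, Cxcl2 and Cxcl3 reached 10 counts only in the Db + Ato10 libraries, so with 1 of these dropped they would not pass it.

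Neutrophil-attracting CXC ligands come first by role. Cxcl5, a ligand of Cxcr2 made by epithelium, stood at 0.0795, 0.693 and 0.0808 CPM in Db replicates 1 to 3 and at 137, 60.0 and 5.59 CPM in Db + Ato10 replicates 1 to 3, the order kept in all lists of 6 values below. All Db + Ato10 libraries lay above all Db libraries, and even replicate 3, the one close to Db across the transcriptome, was above the highest Db value. The fitted log2 fold change was 7.89 ± 1.47 (SE, edgeR), with an adjusted p of 0.239 in edgeR and 1.7e-09 in DESeq2. It fell to 6.85 when Db + Ato10 replicate 1 was dropped and rose to 9.57 when Db replicate 2 was, and Cxcl5 is 1 of the 4 members that passed the filter only through the Db + Ato10 libraries. Cxcl1, the mouse counterpart of the GRO ligands, was at 3.50, 2.08 and 0.404 CPM in Db and 45.0, 44.2 and 8.90 CPM in Db + Ato10. Here replicates 1 and 2 were almost equal, and replicate 3 lay above the highest Db library. The log2 fold change of Cxcl1 was 4.03 ± 0.88, with a DESeq2 adjusted p of 0.000135 that became 0.0649 without Db + Ato10 replicate 1. The log2 fold change was 4.74 without Db replicate 1.

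Cxcl2 (MIP-2), another Cxcr2 ligand made by macrophages and neutrophils as well as epithelium, had 0, 1 and 2 counts in Db and 8830, 269 and 33 counts in Db + Ato10. That corresponds to 0, 0.0867 and 0.162 CPM in Db and 582, 18.2 and 2.60 CPM in Db + Ato10, with no overlap between groups, and replicate 1 was 224 times replicate 3 within the treated group. From the summed counts the ratio was 2590 (95% exact binomial counting interval 886 to 12560), of which most came from replicate 1. Cxcl3, its close paralogue, was at 0, 0.173 and 0 CPM in Db and 168, 5.13 and 1.26 CPM in Db + Ato10, a ratio of 1123 (311 to 9280). Replicate 1 held 96.3% of the Db + Ato10 CPM of Cxcl3, and without it the fitted log2 fold change went from 9.82 to 5.64, and that of Cxcl2 from 11.10 to 6.83. The fitted value of Cxcl3 rose to 12.63 without Db replicate 2, and that of Cxcl2 to 11.95 without Db replicate 3. Fitted fold changes of both depend on the prior count, since the Db group held 3 and 2 counts in all. DESeq2 gave no adjusted p for either with all libraries or with a Db library dropped, and with all libraries it gave no p at all. It called both when any 1 Db + Ato10 library was dropped, with adjusted p of at most 0.000382 for Cxcl2 and 0.0188 for Cxcl3. Both passed the filter only through the 3 Db + Ato10 libraries and would fail it with 1 of these dropped. Calls from those fits therefore do not show that the difference holds without a library. Cxcr2, the main receptor of these ligands on neutrophils, was at 0.556, 0.780 and 0.404 CPM in Db and 43.0, 4.73 and 0.709 CPM in Db + Ato10, with replicate 3 inside the Db range. It was not tested, as only replicates 1 and 2 of Db + Ato10 reached 10 counts. Cxcr1, a receptor for Cxcl5, had no count in Db and 1.45, 0.135 and 0 CPM in Db + Ato10. Against a floor of 3 counts over the Db group its ratio was 6.81. Cxcl15 (lungkine) had no count in Db and 7 counts over Db + Ato10, of which 6 were in replicate 1. Its ratio against the same floor was 1.99.

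Cxcl5, Cxcl3, Cxcl15, Cxcl1 and Cxcl2 lie side by side on chromosome 5, with at most 3 other protein-coding genes between neighbours (GRCm38.p6 annotation). Their promoters are shown because the 3 GRO-type ligands were all above Db in every treated library and share a motif. A search of both strands for GGG followed by any 2 bases and then TTTCC, a common form of the kappa B site, in the 250 bases before and 50 after each start found it in 6 of the 44 members with a promoter in the RefSeq table (13.6%), against 1.63% of all promoters and 1.89% of all genes. The 6 were Cxcl1, Cxcl2, Cxcl3, Ccl20, Ccl9 and Ccr3. Members without a promoter in the table included Cxcl5, Cxcl16, Cxcl17, Cxcr5, Ccl2, Ccl4, Ccl5, Ccl7, Ccl11, Ccl21c, Ccl24, Ccr7 and Ccr10. The match describes letters only, and no binding was measured. The last 120 bases before each start follow 5′ to 3′ on the plus strand, at chr5:90891125-90891244 for Cxcl1, chr5:90903779-90903898 for Cxcl2 and chr5:90785981-90786100 for Cxcl3 (RefSeq, GRCm38.p6), with the motif on either strand in capitals.
Cxcl1: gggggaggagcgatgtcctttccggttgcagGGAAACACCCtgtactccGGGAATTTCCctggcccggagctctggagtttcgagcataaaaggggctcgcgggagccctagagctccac
Cxcl2: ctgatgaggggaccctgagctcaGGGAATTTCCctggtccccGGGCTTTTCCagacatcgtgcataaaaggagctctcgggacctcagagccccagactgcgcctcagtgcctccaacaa
Cxcl3: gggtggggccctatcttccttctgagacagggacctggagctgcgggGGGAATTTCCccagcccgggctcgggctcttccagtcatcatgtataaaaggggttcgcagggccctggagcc
Every one of these 3 stretches held GGGAATTTCC on the strand of the gene, with its first base at -71 for Cxcl1, -97 for Cxcl2 and -73 for Cxcl3, counted from the start. Cxcl1 held a second match on the opposite strand at -89, and Cxcl2 a second on the same strand at -78. Ccl20 at -80, Ccl9 at -35 and Ccr3 at -179 held theirs on the opposite strand.

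**Figure D2:**
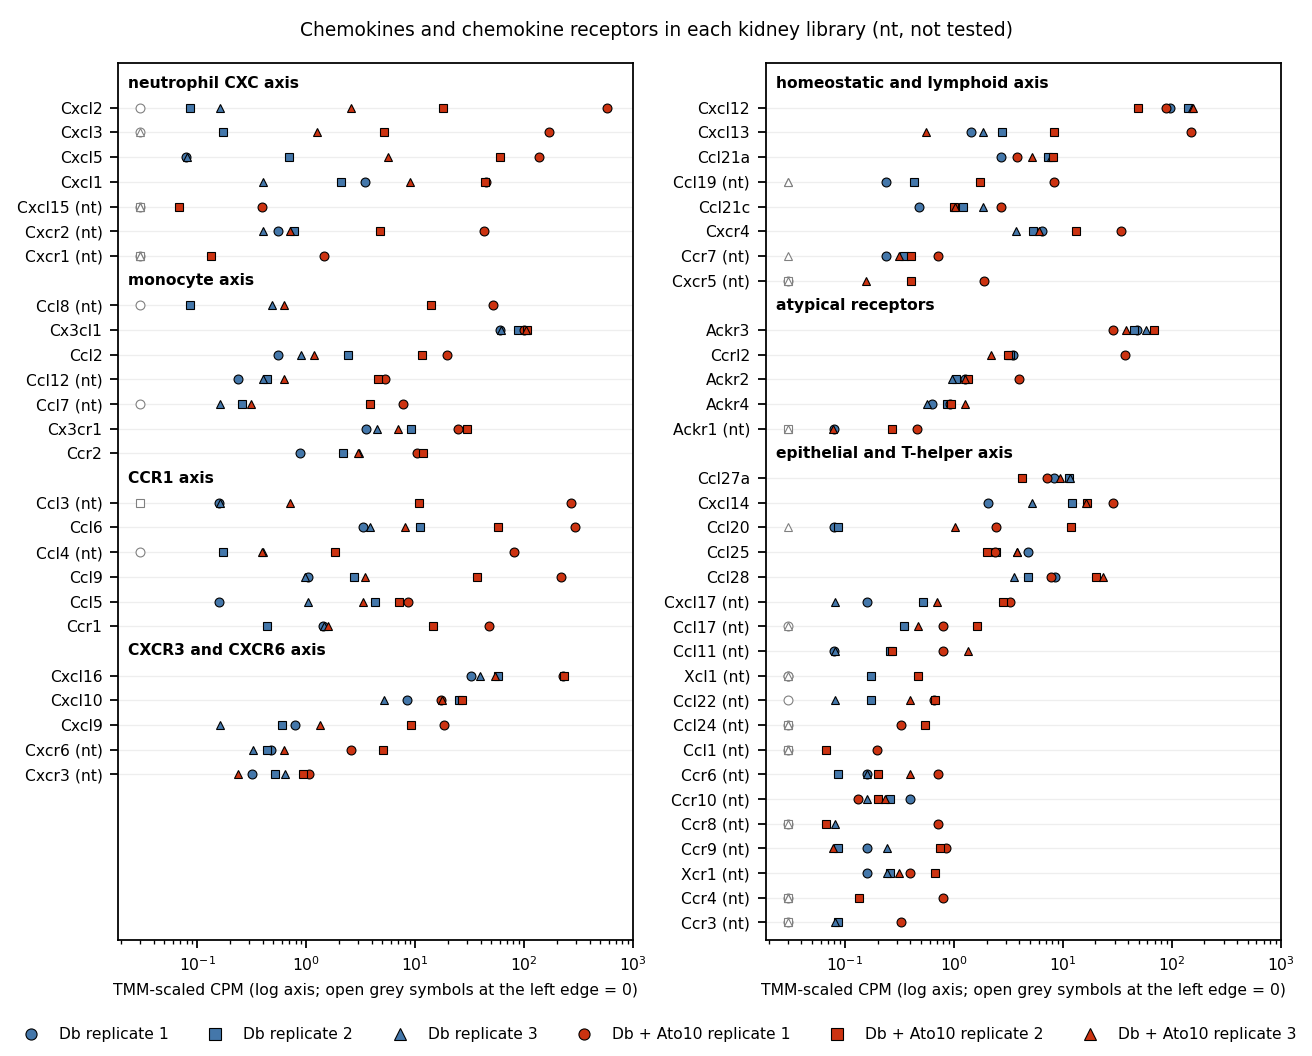
TMM-scaled CPM (log axis) of chemokine members by axis, with 1 symbol per library (Db blue, Db + Ato10 red), open grey symbols for a value of 0 and nt for members not tested. Cxcl5, Cxcl1, Cxcl2 and Cxcl3 have every Db + Ato10 point above every Db point, and Cxcl12 has overlapping groups.

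The monocyte ligands and their receptors were high in Db + Ato10 replicates 1 and 2. Ccl2 (MCP-1), the main ligand of Ccr2, was at 0.556, 2.43 and 0.889 CPM in Db and 19.5, 11.6 and 1.18 CPM in Db + Ato10. Replicate 3 fell inside the Db range, so the groups overlapped. The log2 fold change was 3.06 ± 1.03, with a DESeq2 adjusted p of 0.023, and it was 2.33 with Db + Ato10 replicate 1 dropped and 3.89 with Db replicate 2 dropped. That call was lost without Db replicate 1 (0.220), Db replicate 3 (0.198), Db + Ato10 replicate 1 (0.226) or Db + Ato10 replicate 2 (0.151). Ccr2, which inflammatory monocytes need to leave the marrow, was at 0.874, 2.17 and 3.07 CPM in Db and 10.4, 11.8 and 2.99 CPM in Db + Ato10. Replicate 3 was again within the Db range. Its log2 fold change was 2.04 ± 0.65 (DESeq2 adjusted p 0.0359), and this p was 0.237, 0.132 or 0.0682 when Db replicate 1, 2 or 3 was left out. Leaving out Db + Ato10 replicate 1 or 2 gave 0.182 or 0.271. The other ligands of Ccr2 were below the filter. Ccl8 was at 0, 0.0867 and 0.485 CPM in Db and 51.4, 13.9 and 0.630 CPM in Db + Ato10, and its neighbours Ccl7 and Ccl12 reached 7.77 and 5.34 CPM in replicate 1 against at most 0.260 and 0.433 CPM in Db. For Ccl7, Ccl8 and Ccl12 every Db + Ato10 library lay above every Db library, by little in replicate 3.

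Cx3cl1 (fractalkine), a ligand tethered to the membrane of endothelial and epithelial cells, was at 60.2, 88.4 and 61.5 CPM in Db and 100, 107 and 103 CPM in Db + Ato10. The 3 Db + Ato10 libraries were nearly equal and all above Db, including replicate 3, and the difference was small, with a log2 fold change of 0.56 ± 0.18. It passed no adjusted threshold with all libraries (edgeR 0.239, DESeq2 0.0933). Without Db replicate 2 the log2 fold change was 0.77 and the DESeq2 adjusted p 3.57e-05. With each other library dropped in turn, that p ran from 0.116 to 0.429. Cx3cr1, its receptor on monocytes and resident macrophages, was at 3.58, 9.19 and 4.44 CPM in Db and 24.6, 30.2 and 7.01 CPM in Db + Ato10. Unlike its ligand, the receptor had replicate 3 inside the Db range. Its log2 fold change was 1.85 ± 0.61 with a DESeq2 adjusted p of 0.0418. It was 0.307 or 0.271 with Db replicate 1 or 3 left out, and dropping Db + Ato10 replicate 1 or 2 gave 0.155 or 0.303.

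Several macrophage-attracting CC ligands were highest in Db + Ato10 replicate 1. Ccl9, a mouse ligand of Ccr1 made by myeloid cells, was at 1.03, 2.77 and 0.969 CPM in Db and 220, 37.2 and 3.47 CPM in Db + Ato10. Groups did not overlap, and the log2 fold change of 5.77 ± 1.52 (DESeq2 adjusted p 0.00245) became 3.69 without replicate 1, or 6.43 when Db replicate 2 was dropped. Ccl6, a related ligand of Ccr1, was at 3.34, 11.2 and 3.88 CPM in Db and 294, 57.1 and 8.11 CPM in Db + Ato10. With replicate 3 below the highest Db library the groups overlapped. The log2 fold change was 4.29 ± 1.30 (DESeq2 adjusted p 0.00193) and 2.43 without Db + Ato10 replicate 1, where the DESeq2 adjusted p was 0.304. The call was also lost without Db replicate 1 (0.0681) or Db replicate 3 (0.0586), and dropping Db replicate 2 gave a log2 fold change of 5.06.

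Ccl3 (MIP-1 alpha) and Ccl4 (MIP-1 beta), made by activated macrophages and neutrophils, were nearly undetected in Db. Ccl3 was at 0.159, 0 and 0.162 CPM in Db and 272, 10.8 and 0.709 CPM in Db + Ato10, and Ccl4 was at 0, 0.173 and 0.404 CPM in Db and 81.0, 1.82 and 0.394 CPM in Db + Ato10. Replicate 1 held 95.9% and 97.3% of their Db + Ato10 CPM, and neither was tested because only replicates 1 and 2 reached 10 counts. Ccl5 (RANTES), a T cell product, was at 0.159, 4.25 and 1.05 CPM in Db and 8.69, 7.16 and 3.31 CPM in Db + Ato10. It had overlapping groups, a log2 fold change of 1.82 ± 0.94 and an unadjusted edgeR p of 0.0971 (DESeq2 adjusted p 0.269). Without Db replicate 2, the highest Db library, the log2 fold change was 3.39 and the DESeq2 adjusted p 0.00525. That p ran from 0.128 to 0.629 with each other library dropped in turn.

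Ccr1, a receptor of Ccl3, Ccl5, Ccl6 and Ccl9 on monocytes and neutrophils, was at 1.43, 0.433 and 1.45 CPM in Db and 47.6, 14.7 and 1.58 CPM in Db + Ato10. The groups were separate, although replicate 3 exceeded the highest Db library by only a small margin. Its log2 fold change was 4.25 ± 1.20 (DESeq2 adjusted p 0.0018), and without Db + Ato10 replicate 1 it was 2.87 with an adjusted p of 0.0612.

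Cxcl9 and Cxcl10 are interferon-induced ligands of Cxcr3. Cxcl9, induced by interferon gamma, was at 0.795, 0.607 and 0.162 CPM in Db and 18.3, 9.18 and 1.34 CPM in Db + Ato10, with all treated libraries above Db. The log2 fold change was 4.18 ± 1.03, with a DESeq2 adjusted p of 0.000973, and was 3.33 without Db + Ato10 replicate 1. Its neighbour Cxcl10, induced by type I and type II interferons, was at 8.42, 25.5 and 5.17 CPM in Db and 17.3, 27.1 and 17.5 CPM in Db + Ato10. Db replicate 2 exceeded 2 of the treated libraries, and the log2 fold change was 0.67 ± 0.58 (unadjusted edgeR p 0.292, DESeq2 adjusted p 0.554). Without Db replicate 2 the log2 fold change of Cxcl10 was 1.598 and its DESeq2 adjusted p 0.00579. Dropping each other library in turn gave a DESeq2 adjusted p of 0.461 to 0.871. Whether the pair differ from each other was not tested. Cxcr3, the receptor on activated T cells, was at 0.318, 0.520 and 0.646 CPM in Db and 1.05, 0.945 and 0.236 CPM in Db + Ato10, with the lowest value of all in replicate 3, and was not tested.

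Cxcl16, a transmembrane ligand that also binds oxidised lipoprotein, was at 32.5, 58.2 and 39.7 CPM in Db and 227, 230 and 54.3 CPM in Db + Ato10. Replicates 1 and 2 were nearly equal and replicate 3 lay inside the Db range. For Cxcl16 the log2 fold change was 1.97 ± 0.56, with a DESeq2 adjusted p of 0.0107. The call was lost without Db replicate 1 (0.162), Db replicate 3 (0.128), Db + Ato10 replicate 1 (0.0522) or Db + Ato10 replicate 2 (0.141). Its receptor Cxcr6, found on T and NKT cells, was at 0.477, 0.433 and 0.323 CPM in Db and 2.57, 5.06 and 0.630 CPM in Db + Ato10. Replicate 2 was the highest, the groups did not overlap, and the gene was below the filter.

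Homeostatic ligands, which place lymphocytes and progenitors in tissue, mostly did not separate the groups. Cxcl12 (SDF-1), made by stroma and endothelium, was at 96.5, 142 and 154 CPM in Db and 88.7, 49.0 and 158 CPM in Db + Ato10. Replicates 1 and 2 were the lowest of the 6 and replicate 3 the highest, giving a log2 fold change of -0.41 ± 0.42 (unadjusted edgeR p 0.373). With replicate 3 dropped it was -0.91 at an unadjusted edgeR p of 0.0336 (DESeq2 adjusted p 0.0684). Its receptor Cxcr4, present on most leukocytes, was at 6.44, 5.37 and 3.72 CPM in Db and 34.0, 13.3 and 6.07 CPM in Db + Ato10. Replicate 3 was within the Db range, and the log2 fold change of 1.78 ± 0.62 (DESeq2 adjusted p 0.0609) became 0.91 without replicate 1. Without replicate 3 the DESeq2 adjusted p was 0.00025, and with each other library dropped in turn it ran from 0.151 to 0.396.

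Cxcl13, which draws B cells into follicles, was at 1.43, 2.77 and 1.86 CPM in Db and 152, 8.31 and 0.551 CPM in Db + Ato10. One library carried the difference: the highest and the lowest of the 6 values were both in Db + Ato10, and the log2 fold change of 4.73 ± 1.77 (DESeq2 adjusted p 0.0603) was 1.15 without replicate 1, at an unadjusted edgeR p of 0.258. Dropping replicate 3 gave 5.33 and a DESeq2 adjusted p of 6.85e-07, and dropping each other library in turn gave 0.103 to 0.719 for that p. Cxcr5, the receptor of Cxcl13, had no count in Db and 1.91, 0.405 and 0.158 CPM in Db + Ato10. Its ratio against the floor was 10.5. Ccl19, a ligand of Ccr7 on dendritic cells and naive T cells, was at 0.238, 0.433 and 0 CPM in Db and 8.30, 1.76 and 0 CPM in Db + Ato10, and was not tested. Ccl21a, the other Ccr7 ligand, was at 2.70, 7.37 and 7.84 CPM in Db and 3.82, 8.17 and 5.20 CPM in Db + Ato10, with a log2 fold change of -0.06 ± 0.48 whose sign changed with the setting. Ccr7 itself reached at most 0.725 CPM, and the copy Ccl21c had a log2 fold change of 0.42 ± 0.63 that turned to -0.21 with Db + Ato10 replicate 1 dropped and to -0.60 with Db replicate 1 dropped as well.

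Among epithelial ligands, Ccl20 and Ccl28 were highest outside Db + Ato10 replicate 1. Ccl20, the ligand of Ccr6 that attracts Th17 cells and immature dendritic cells, was at 0.0795, 0.0867 and 0 CPM in Db and 2.44, 11.95 and 1.02 CPM in Db + Ato10. Replicate 2 led, and all 3 treated libraries were above Db. The ratio of summed counts was 96.6 (95% exact binomial counting interval 26.4 to 802), and DESeq2 gave an adjusted p of 0.00054. The fitted log2 fold change, which depends on the prior count, was 6.33 and became 4.77 without Db + Ato10 replicate 2. Ccr6 was at 0.159, 0.0867 and 0.162 CPM in Db and 0.725, 0.203 and 0.394 CPM in Db + Ato10, too low to be tested. Ccl28, a mucosal ligand of Ccr10 and Ccr3, was at 8.42, 4.85 and 3.55 CPM in Db and 7.77, 20.3 and 23.6 CPM in Db + Ato10. This was the only DESeq2 call with its highest value in Db + Ato10 replicate 3, and replicate 1 was inside the Db range. Its log2 fold change was 1.61 ± 0.50 with a DESeq2 adjusted p of 0.0383, and the call was lost when Db replicate 2 (0.189), Db replicate 3 (0.266), Db + Ato10 replicate 2 (0.231) or Db + Ato10 replicate 3 (0.0870) was dropped.

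Ccl27a, the other ligand of Ccr10 and best known from keratinocytes, was at 8.34, 11.4 and 11.6 CPM in Db and 7.25, 4.25 and 9.37 CPM in Db + Ato10. Replicates 1 and 2 were the lowest of all libraries, and the log2 fold change was -0.59 ± 0.33 (unadjusted edgeR p 0.12). It became -0.85 at an unadjusted edgeR p of 0.0407 (DESeq2 adjusted p 0.0998) once replicate 3 was dropped. Ccr10 was at 0.397, 0.260 and 0.162 CPM in Db and 0.132, 0.203 and 0.236 CPM in Db + Ato10, and it was the only untested member with its highest value in a Db library. Cxcl14, an epithelial ligand for monocytes and dendritic cells, was at 2.07, 12.2 and 5.25 CPM in Db and 29.0, 16.7 and 16.5 CPM in Db + Ato10. Groups were separate, with a log2 fold change of 1.67 ± 0.62 (edgeR adjusted p 0.266, DESeq2 adjusted p 0.0794). Without Db replicate 2 it was 2.50 with a DESeq2 adjusted p of 0.00107, and without Db + Ato10 replicate 3 that p was 0.0463. It ran from 0.202 to 0.372 with each other library dropped in turn. Ccl25, a ligand of Ccr9 known from thymus and gut, was at 4.85, 2.43 and 3.797 CPM in Db and 2.37, 2.03 and 3.78 CPM in Db + Ato10, with a log2 fold change of -0.44 ± 0.38 and overlapping groups.

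The atypical receptors, which scavenge or present ligands, gave no DESeq2 call with all libraries. Ackr3, the scavenger of Cxcl12, was at 47.8, 45.4 and 57.8 CPM in Db and 28.8, 68.7 and 37.9 CPM in Db + Ato10. Treated libraries lay on both sides of the Db range, and the log2 fold change of -0.16 ± 0.32 was 0.088 without Db + Ato10 replicate 1. Ackr4, the scavenger of Ccl19, Ccl21 and Ccl25, was at 0.636, 0.867 and 0.565 CPM in Db and 0.922, 0.945 and 1.26 CPM in Db + Ato10, with separate groups but a log2 fold change of 0.59 ± 0.37 (unadjusted edgeR p 0.157). On the FPKM and TPM scales its difference was negative, at -0.023 and -0.059. Ackr2, the scavenger of inflammatory CC ligands, had a log2 fold change of 1.00 ± 0.53 (unadjusted edgeR p 0.106), which was 0.26 at a p of 0.545 with Db + Ato10 replicate 1 dropped. Ccrl2, which binds chemerin and is named here after its values were seen, was at 3.50, 3.29 and 3.23 CPM in Db and 37.3, 3.17 and 2.21 CPM in Db + Ato10. Replicate 1 alone was high, and the log2 fold change of 2.09 ± 1.07 was -0.30 without it. DESeq2 gave Ccrl2 an adjusted p of 0.016 without Db + Ato10 replicate 3, and of 0.159 to 0.868 with each other library dropped in turn. One of its 3 transcripts accounted for 12.6% of the TPM of the gene in Db and 75.6% in Db + Ato10, with 474 counts in replicate 1 and 0 to 9 in the other libraries.

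**Figure D3:**
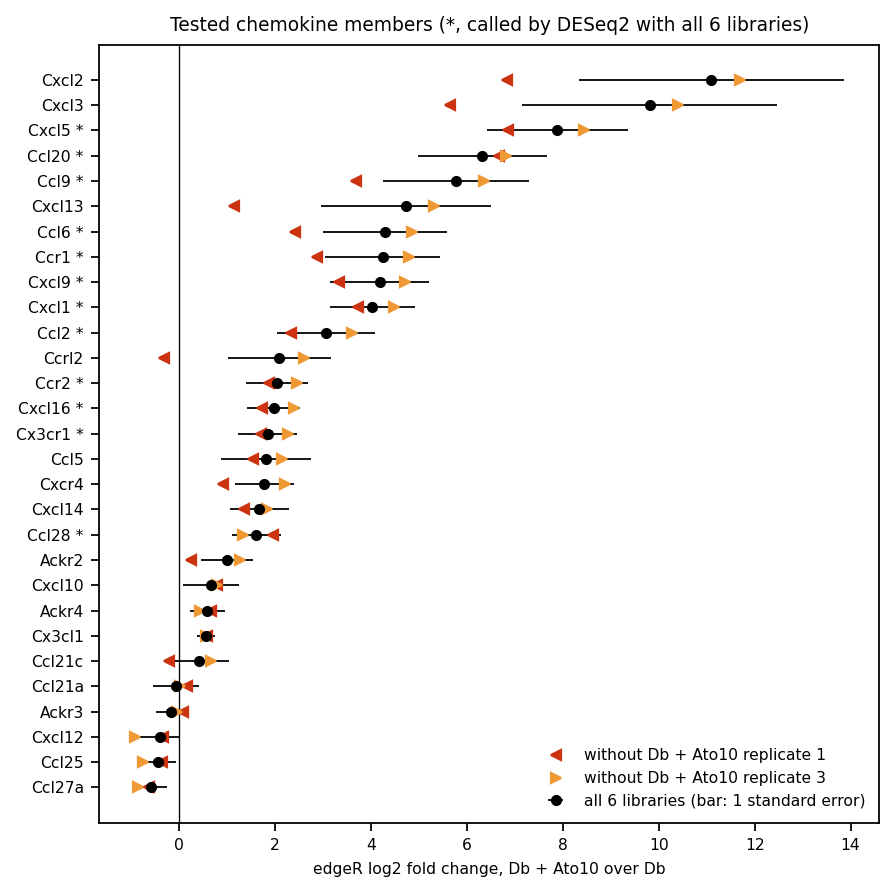
Log2 fold change (Db + Ato10 minus Db, edgeR) of tested chemokine members with all 6 libraries (black, bar 1 SE) and without Db + Ato10 replicate 1 or 3 (triangles). Ccrl2 goes from 2.09 to -0.30 without Db + Ato10 replicate 1, and the fitted values of Cxcl2, Cxcl3 and Ccl20 depend on the prior count because their Db totals are 3, 2 and 2 counts.

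The 28 untested members were Ccl1, Ccl3, Ccl4, Ccl7, Ccl8, Ccl11, Ccl12, Ccl17, Ccl19, Ccl22, Ccl24, Cxcl15, Cxcl17, Xcl1, Cxcr1, Cxcr2, Cxcr3, Cxcr5, Cxcr6, Ccr3, Ccr4, Ccr6, Ccr7, Ccr8, Ccr9, Ccr10, Xcr1 and Ackr1. In 20 of them the highest value was in Db + Ato10 replicate 1, in 6 in replicate 2, in 1 in replicate 3 and in 1 in a Db library. Groups did not overlap for 12, all higher in Db + Ato10. Over all genes with a count, tested or not, they did not overlap for 3677 of 17672, of which 1887 were higher, and among the 58 members for 24. Ccl17 and Ccl22, ligands of Ccr4 that attract Th2 and regulatory T cells, were among these, with 0.790, 1.62 and 0.473 CPM and 0.659, 0.675 and 0.394 CPM in Db + Ato10 against at most 0.347 and 0.173 CPM in Db. Ccl11 (eotaxin), which attracts eosinophils through Ccr3, was the one with its highest value in replicate 3, at 0.790, 0.270 and 1.34 CPM in Db + Ato10 against at most 0.260 CPM in Db. Cxcl17, a mucosal chemoattractant, was at 3.29, 2.84 and 0.709 CPM in Db + Ato10 against at most 0.520 CPM in Db. Ccr4, Ccl24 and Ccl1 had no count in Db. Against the floor of 3 counts over the group, their ratios were 3.97, 3.69 and 1.14. That of Ccl1 rests on 4 counts over Db + Ato10, and no interval was computed for members without a Db count. Of the 14 counts of Ccr4 in Db + Ato10, 12 were in replicate 1. Ccr8 and Ackr1 had 1 count in Db and 12 in Db + Ato10, a ratio of 10.2 (95% exact binomial counting interval 1.51 to 437), and for Ccr8 11 of the 12 were in replicate 1 and 0 in replicate 3. Xcl1 and Ccr3 had 2 counts each in Db, with intervals of the ratio from 0.567 to 29.4 and 0.348 to 22.3, so no difference was detectable at this depth. Ccl22 had 3 counts in Db and a ratio of 7.09 (2.16 to 36.7). Ccr9 and Xcr1 reached at most 0.856 and 0.675 CPM in any library.

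By axis, the neutrophil CXC group of 7 members summed to 7.80, 6.07 and 1.46 TPM in Db and 1468, 204 and 30.5 TPM in Db + Ato10, with all 3 treated libraries above Db. The 7 monocyte members summed to 38.2, 64.1 and 44.6 TPM in Db and 360, 204 and 67.8 TPM in Db + Ato10. Members of the Cxcr3 and Cxcr6 axis, 5 in all, summed to 42.9, 93.9 and 41.3 TPM in Db and 209, 240 and 72.6 TPM in Db + Ato10, and the 19 of the epithelial and T-helper axis to 46.8, 64.9 and 57.3 TPM and 78.6, 97.2 and 72.8 TPM. In the last of these groups replicate 3 was also above every Db library, by a small margin. The homeostatic and lymphoid axis of 8 members was flat apart from replicate 1, at 92.7, 144 and 150 TPM in Db and 359, 93.2 and 133 TPM in Db + Ato10. Thus the lead of replicate 1 over replicate 2 in these sums was wide for the neutrophil CXC group and smaller for the monocyte group. In the neutrophil CXC group it came mostly from Cxcl2 and Cxcl3, at 933 and 289 TPM in replicate 1 and 32.6 and 9.90 TPM in replicate 2. Cxcl5 was at 137 and 66.5 TPM in these libraries, and Cxcl1, at 83.6 and 92.0 TPM, was higher in replicate 2.

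The transcript table held 99 transcripts of the members among 54723, and 38 of 30175 tested were theirs. EdgeR called 0 of these, as it called 0% of all tested transcripts, 17 had an unadjusted edgeR p under 0.05, beside 8.19% of all, and DESeq2 called 8, beside 2.95%. The 8 belonged to Cxcl1, Cxcl5, Cxcl9, Cxcl13, Cxcl16, Ccl6, Ccl9 and Ccr1. In 21 members with more than 1 transcript the use of isoforms could be followed, without a test. The main transcript of Cxcl12 held 72.7% of the TPM of the gene in Db and 71.5% in Db + Ato10, and that of Cxcl16 held 70.4% and 69.5%, so their proportions were close while the level of Cxcl16 differed. Shares moved in other members. For Ccr2 a transcript with 36.8% of the TPM in Db held 100% in Db + Ato10, but it took all 25 counts of Db replicate 2 and none of the 11 and 38 counts of Db replicates 1 and 3. For Ackr4 the transcript with 73.0% in Db, from 3 to 5 counts in each library, held 13.2% in Db + Ato10.

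Downstream of the receptors, 41 genes of a list of signalling components were in the table and 38 were tested. At an unadjusted edgeR p under 0.05, 20 were higher and 0 lower in Db + Ato10, DESeq2 called 13, edgeR called 0, and the median log2 fold change was 1.24. Over all tested genes the shares were 11.2% and 5.71% at the unadjusted p, higher and lower, and 5.17% for DESeq2 calls higher, and the gene lists that follow are to be read against the same shares. Rac2, a small GTPase of leukocytes, was at 3.18, 7.63 and 4.52 CPM in Db and 384, 30.4 and 8.11 CPM in Db + Ato10 (log2 fold change 4.79 ± 1.46, DESeq2 adjusted p 0.0147). Gnai2, the main inhibitory G protein subunit of leukocytes, was at 204, 217 and 232 CPM in Db and 802, 496 and 282 CPM in Db + Ato10 (1.28 ± 0.37, DESeq2 adjusted p 0.0249). The other components above 60 CPM in every Db library, Gnai1, Gnai3, Gnaq, Gnb1, Gnb2, Gng12, Rac1, Arrb1 and Grk2, ran from a log2 fold change of -0.33 ± 0.20 for Gnai1 to 0.66 ± 0.25 for Gnb2 (unadjusted edgeR p 0.155 and 0.036), with no DESeq2 call. A list of NF-kB subunits, regulators and inducing cytokines had 24 genes in the table and 17 tested, with 16 higher and 0 lower at an unadjusted edgeR p under 0.05, 11 DESeq2 calls, 0 edgeR calls and a median log2 fold change of 1.94. Relb was at 7.23, 10.7 and 6.14 CPM in Db and 54.7, 29.0 and 15.3 CPM in Db + Ato10 (2.04 ± 0.49, DESeq2 adjusted p 0.00338), with all treated libraries above Db. Il1b, an inducer of many chemokines, was at 0.715, 0.954 and 1.13 CPM in Db and 440, 14.9 and 3.94 CPM in Db + Ato10, and Tnf, another inducer, reached 32.7 CPM in replicate 1 against at most 0.242 CPM in Db. Il6 and Ifng had no count in Db.

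Summed markers of neutrophils, macrophages and monocytes were highest in Db + Ato10 replicate 1, followed by replicate 2. All 10 neutrophil markers were in the table, and 4 were tested, with 4 higher at an unadjusted edgeR p under 0.05 and 1 DESeq2 call. Their summed level was 23.7, 37.5 and 16.5 TPM in Db and 45688, 433 and 41.7 TPM in Db + Ato10. The most abundant, S100a9, was at 9.51, 20.8 and 11.4 TPM in Db and 21112, 194 and 23.0 TPM in Db + Ato10. In Db + Ato10 replicate 3, S100a8, S100a9, Retnlg and Csf3r were above the Db range in TPM, by small margins, and Ly6g, Mpo, Elane and Camp had no count, against 0 to 4 counts in each Db library. None of the 10 was at 0 in every Db library. All 10 macrophage markers were tested, with 9 higher at an unadjusted edgeR p under 0.05 and 8 DESeq2 calls, and they summed to 184, 347 and 251 TPM in Db and 6789, 1994 and 361 TPM in Db + Ato10, led by Lyz2 at 38.9, 107 and 76.8 TPM and 4395, 993 and 114 TPM. No macrophage marker was at 0 in every Db library. The 5 monocyte markers other than Ccr2 summed to 12.3, 32.2 and 26.9 TPM in Db and 824, 355 and 55.7 TPM in Db + Ato10, led by Plac8, with 4 of 5 at an unadjusted edgeR p under 0.05 and 3 DESeq2 calls.

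Lymphocyte markers were far less abundant. The 10 T cell markers summed to 2.99, 8.73 and 4.15 TPM in Db and 24.8, 30.3 and 5.82 TPM in Db + Ato10, led by Cd3g, with 5 tested, 2 at an unadjusted edgeR p under 0.05 and 2 DESeq2 calls. The 8 B cell markers summed to 0.840, 3.46 and 1.68 TPM in Db and 26.4, 9.14 and 2.37 TPM in Db + Ato10, led by Cd79a, with 1 tested, 1 at an unadjusted edgeR p under 0.05 and 0 DESeq2 calls. No T or B cell marker was at 0 in every Db library. The 6 dendritic cell markers summed to 6.53, 7.23 and 5.02 TPM in Db and 8.35, 9.61 and 5.91 TPM in Db + Ato10, with 4 tested and 1 DESeq2 call, Itgax, and Cd209a was at 0 in every Db + Ato10 library. Of 6 NK cell markers 1 was tested, with 0 at an unadjusted edgeR p under 0.05 and 0 DESeq2 calls, and they summed to 0.990, 3.44 and 1.28 TPM in Db and 11.3, 4.78 and 0.380 TPM in Db + Ato10. In the parenchyma, all 5 markers of injured tubule were DESeq2 calls, and they summed to 3861, 4586 and 2449 TPM in Db and 21552, 40389 and 12135 TPM in Db + Ato10, led by Spp1. Here replicate 2 was the highest and replicate 3 was above every Db library. The 7 proximal tubule markers summed to 5422, 4090 and 5486 TPM in Db and 801, 2671 and 5040 TPM in Db + Ato10, led by Slc34a1, with 0 at an unadjusted edgeR p under 0.05 in either direction and 0 DESeq2 calls. Of 4 thick ascending limb markers, 2 were lower at an unadjusted edgeR p under 0.05 and by DESeq2 (Slc12a1 and Kcnj1), and of 5 collecting duct markers 3 were lower at that p and 2 by DESeq2 (Scnn1g and Slc4a1), beside 5.71% and 1.29% of all tested genes. Endothelial markers, 7 of 7 tested, summed to 367, 364 and 389 TPM in Db and 414, 200 and 397 TPM in Db + Ato10, led by Plvap, with 1 lower at an unadjusted edgeR p under 0.05 (Kdr), 2 with separate groups and lower, beside 11.3% of all tested genes, and 0 DESeq2 calls. The 7 fibroblast and pericyte markers, all tested, summed to 63.8, 73.8 and 69.8 TPM in Db and 579, 195 and 96.3 TPM in Db + Ato10, led by Dcn, with 5 higher at an unadjusted edgeR p under 0.05 and 3 DESeq2 calls. Squamous and urothelial markers, 10 in all and 4 tested, summed to 7.43, 3.79 and 5.12 TPM in Db and 105, 55.96 and 18.5 TPM in Db + Ato10, led by Krt5, with 3 higher at that p and 2 DESeq2 calls, and Krt6a, Krt13 and Dsg3 were at 0 in every Db library. The 6 plasma cell markers in the table summed to 177, 124 and 135 TPM in Db and 485, 276 and 157 TPM in Db + Ato10, led by Xbp1, with 5 tested, 3 higher at that p, 2 DESeq2 calls and Tnfrsf17 at 0 in every Db library. Lymphatic and high endothelial markers had 1 DESeq2 call in each direction, Pdpn higher and Prox1 lower, among 5 tested. Blood markers, 6 in the table and 5 tested, were high in Db replicate 3, at 3595, 3152 and 13202 TPM in Db and 4056, 861 and 1916 TPM in Db + Ato10, led by Hba-a1, with 0 at that p and 0 DESeq2 calls. The part of these cell types in the chemokine values was not tested.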

How the data were processed

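Kidney RNA of 3 Db and 3 Db + Ato10 libraries was measured, with group and number read from the labels. For genes and for transcripts, the authors deposited expected counts (estimated reads, not normalised), FPKM (per length and library size) and TPM (per length, scaled to a fixed total). The submitters' processing notes name HISAT, Bowtie2 2.2.5 and mm9, and the counter is not stated. Multi-mapped reads between close paralogues may be shared out by the estimate, which could blur such pairs.

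Expected counts were rounded. A gene was fitted, with the whole table, if 3 or more libraries had 10 counts or more, using edgeR 4.0.16 (TMM, quasi-likelihood F test) in R 4.3.3, and calls required an adjusted p (Benjamini-Hochberg, all genes) under 0.05 beside a fold change over 1.5. DESeq2 1.42.0 was run beside it. The SE is the log2 fold change divided by the root of F. CPM used TMM factors, and levels were compared between genes in TPM. Ratios with 1 to 3 Db counts have 95% exact binomial intervals (scipy 1.17.1). Depth per library was 11381678 to 14667909 counts. The procedure was tested on simulated data whose spread between libraries was taken from the Db libraries alone. The wider spread of the Db + Ato10 libraries was not covered by it. Figures used matplotlib 3.10.9.

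Members given in every library passed the filter and were called by edgeR or DESeq2, were among the 12 highest by mean TPM, or had separate groups with a fold change over 1.5 (at most 16). Their ligands or receptors were added from a receptor map. The grouping by axis was made by hand. Members and lists were chosen with earlier results of these data known. Alternatives were limma 3.58.1, other normalisations, filters and scales, a replicate block and leaving out each library. Leaving out Db replicate 1 and Db + Ato10 replicate 1 together was chosen after seeing the data. Promoters came from RefSeq, GRCm38.p6.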

Additional observations from a re-analysis of the deposited data

How the results depend on the processing

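The median log2 fold change of the tested chemokine members was positive under every alternative tried. Members called by edgeR went from 0 to 13 with DESeq2 and ran from 0 to 16 with single libraries left out; all genes called went from 0 to 884 with DESeq2 and ran from 0 to 1236. Transcripts of members called went from 0 to 8 with DESeq2 and stayed at 0 with each library left out. DESeq2 members, 13 with all libraries, ran from 6 to 18, beside 195 to 2711 genes. The count of 19 members at an unadjusted p under 0.05, all higher, beside 2314 of 13679 genes in either direction, was 9 with limma-voom, 32 without the filter, 10 with at least 10 counts in every library and 8 with Db replicate 1 and Db + Ato10 replicate 1 both left out, a setting chosen after seeing the data, beside 1820 genes, 2782 of 17672, 2040 of 12675 and 913. It ran from 11 to 22 with single libraries left out, beside 1061 to 4119 genes. The 22 held 2 lower members, Cxcl12 and Ccl27a, and 1 of the 18 with Db + Ato10 replicate 2 dropped was lower. Without the filter 28 more members entered, and with 10 counts in every library 12 left. The 12 members with separate groups, beside 3180 genes, became 24 without the filter, beside 3677 of 17672, and 4 with 10 counts in every library, beside 2825 of 12675, and ran from 13 to 24 with single libraries left out, beside 3965 to 6902 genes, where fewer libraries make separation easier. The median of 1.91 was 2.67 without the filter (2.03 with members at 0 in Db set at the floor), 1.26 with both libraries left out, 1.27 on FPKM and 1.29 on TPM, and ran from 1.61 to 2.34 with single libraries left out. Other shifts were not tested for a cause.

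A replicate block gave 0 edgeR calls, 14 members at an unadjusted p under 0.05, beside 1856 genes, 12 with separate groups, beside 3180, a median of 1.82, 14 DESeq2 calls, beside 697, and 0 transcripts. Replicates of the same number correlated at -0.151, 0.0613 and 0.208 and share only a number, so the block was not used. Over 27 members with single values, 381 values kept direction and side, 29 passed the threshold and 11 changed sign, in Ackr3, Ackr4 and Ccl21a. Among tested members outside these 27, Ccl21c and Ccrl2 were negative with Db + Ato10 replicate 1 dropped, at -0.21 and -0.30. Ackr3 ran from -0.59 to 0.088 with single libraries left out and was 0.040 with both libraries left out. Ackr4 was -0.023 on FPKM and -0.059 on TPM. Ccl21a was 0.027 with limma-voom, 0.011 with the replicate block and 0.017 on FPKM, and ran from -0.40 to 0.19 with single libraries left out. The cause was not tested. Depth limits members near 3 counts, where differences below the counting intervals were not detectable.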

Other observations

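Of 11 listed receptors for other chemoattractants, which sense complement fragments, formyl peptides and lipids, 8 were tested, 7 were higher and 0 lower at an unadjusted edgeR p under 0.05, edgeR called 0 and DESeq2 called 6, with a median log2 fold change of 4.38. Over all tested genes 11.2% were higher at that p and 5.17% were DESeq2 calls higher, which also applies to the lists below. C5ar1, the complement C5a receptor, was at 0.556, 2.17 and 1.13 CPM in Db and 60.5, 12.96 and 2.13 CPM in Db + Ato10, with replicate 3 inside the Db range (log2 fold change 4.29 ± 1.24, DESeq2 adjusted p 0.00187). Fpr1, a receptor for bacterial and mitochondrial formyl peptides, was at 0.0795, 0.0867 and 0.0808 CPM in Db and 75.4, 3.17 and 0.867 CPM in Db + Ato10, and DESeq2 gave it no adjusted p. S1pr1, which guides lymphocyte exit, had a log2 fold change of 0.12 ± 0.56. Of 18 adhesion genes for leukocyte entry, 15 were tested, 9 were higher and 0 lower at an unadjusted edgeR p under 0.05, edgeR called 0 and DESeq2 called 9. Icam1, a ligand of leukocyte integrins, was at 18.7, 31.3 and 25.6 CPM in Db and 142, 100 and 45.9 CPM in Db + Ato10, all above Db (1.93 ± 0.42, DESeq2 adjusted p 0.00161). Pecam1 and Icam2, carried by resting endothelium, had overlapping groups, with CPM of 38.5 to 107 and 4.39 to 8.83 over the 6 libraries.

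Proteases and proteoglycans that trim or present chemokines gave 13 tested of 16, with 8 higher and 0 lower at an unadjusted edgeR p under 0.05, 0 edgeR calls and 7 DESeq2 calls. Mmp7, an epithelial protease that sheds syndecan-1, was at 0, 1.65 and 0 CPM in Db and 203, 69.3 and 6.77 CPM in Db + Ato10 (7.43 ± 1.72, DESeq2 adjusted p 0.039). Sdc1, syndecan-1 itself, was at 9.38, 18.6 and 13.01 CPM in Db and 128, 68.1 and 23.9 CPM in Db + Ato10 (2.43 ± 0.61, DESeq2 adjusted p 0.00281). Both had all treated libraries above Db. Dpp4, which clips the ends of several chemokines, had overlapping groups and a log2 fold change of -0.20 ± 0.25. Chemokines and chemokine-like genes that the symbol rule misses gave 3 of 6 higher and 0 lower at an unadjusted edgeR p under 0.05, 0 edgeR calls and 2 DESeq2 calls. Pf4 (Cxcl4), a product of platelets and macrophages, was at 0.238, 0.780 and 1.05 CPM in Db and 80.8, 13.1 and 1.42 CPM in Db + Ato10 (5.51 ± 1.51, DESeq2 adjusted p 0.000239). Ppbp (Cxcl7), a platelet chemokine, was at 0.556, 0.173 and 1.13 CPM in Db and 8.63, 0.810 and 1.02 CPM in Db + Ato10, high in replicate 1 alone.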
